A study of Mus musculus with 5 samples.

Results

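The marker-selected macrophages described here were 273 of 58411 kept barcodes from injured and sham-operated mouse cortex. A barcode stands for 1 captured cell. A barcode was selected when at least 3 of the 7 genes Mrc1, Cd163, Lyve1, Cbr2, Pf4, F13a1 and Stab1 had a unique molecular identifier (UMI, 1 counted RNA molecule) and when Tmem119, P2ry12, Arg1 and Cd3e all had 0. To be kept, a barcode needed 500 or more UMIs, 200 or more genes and a mitochondrial part of no more than 20%. These genes chose the members, so their values are given as a description, with no test.

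Cortex of C57BL/6J mice was dissociated with papain and DNase, cleared of debris on a Percoll gradient and read with droplet-based single-cell RNA sequencing after sham operation and 1, 3, 7 and 14 days after traumatic brain injury. Each of these 5 groups is 1 library, and the sources used here do not say how many mice it was made from. An injury site is named in the titles of the 4 injured libraries, and none in that of sham. With no second library in any group, differences between libraries have no test, and their 95% intervals cover counting error only.

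Border-associated macrophages are the resident macrophages of the meninges, the perivascular spaces and the choroid plexus, whereas microglia occupy the brain tissue itself. They are known for uptake of material from blood and cerebrospinal fluid through scavenger and lectin receptors, and for presenting antigen at the borders of the brain. Of the genes in the rule, Mrc1 encodes the mannose receptor, Cd163 the haemoglobin-haptoglobin receptor, Lyve1 a hyaluronan receptor and Stab1 a scavenger receptor. Pf4 encodes a chemokine also made by platelets, F13a1 a coagulation factor XIII chain and Cbr2 a carbonyl reductase. Tmem119 and P2ry12 mark microglia, Arg1 marks macrophages that enter injured tissue, and Cd3e marks T cells. Macrophages derived from blood monocytes can also carry Mrc1, Pf4, F13a1 and Stab1.

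Promoters of 3 of the rule genes are shown because these genes were detected together in many members, 1 for a lectin receptor, 1 for a chemokine and 1 for a scavenger receptor. The RefSeq table (GRCm38.p6) held 6 of the 7 genes, and each sequence gives the 250 bases before the start of the gene, read along the gene's strand. Capitals mark matches, on either strand, to GAGGAA (reverse complement TTCCTC), letters found in binding sites of the macrophage factor PU.1, and to TGCTGA (reverse complement TCAGCA), the half-site of MAF factors. The window of Mrc1 is chr2:14229164-14229413 on the plus strand, that of Pf4 is chr5:90772185-90772434 on the plus strand, and that of Stab1 is chr14:31168642-31168891 on the minus strand.
Mrc1: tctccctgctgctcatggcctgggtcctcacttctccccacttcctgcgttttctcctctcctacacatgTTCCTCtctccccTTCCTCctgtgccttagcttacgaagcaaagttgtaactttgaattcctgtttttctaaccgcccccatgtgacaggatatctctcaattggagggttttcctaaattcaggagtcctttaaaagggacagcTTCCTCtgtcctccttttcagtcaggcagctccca
Pf4: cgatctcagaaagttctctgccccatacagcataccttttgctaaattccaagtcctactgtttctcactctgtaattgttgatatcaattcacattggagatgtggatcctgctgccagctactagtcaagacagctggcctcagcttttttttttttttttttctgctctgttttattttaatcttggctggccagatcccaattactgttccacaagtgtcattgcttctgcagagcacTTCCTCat
Stab1: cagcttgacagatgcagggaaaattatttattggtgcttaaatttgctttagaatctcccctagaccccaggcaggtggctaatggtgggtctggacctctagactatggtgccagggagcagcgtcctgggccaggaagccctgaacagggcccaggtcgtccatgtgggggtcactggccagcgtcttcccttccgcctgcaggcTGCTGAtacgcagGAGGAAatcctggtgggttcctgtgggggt
The 6 genes have 7 windows, since F13a1 has 2. GAGGAA or its complement was present in 5 of the 7, among them Mrc1 with 3 matches, and in 23.3% of all 32851 promoter windows of this length (7639). TGCTGA or its complement was present in 1 of the 7, that of Stab1, and in 16.1% of all windows (5282). These matches describe letters only.

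The 5 libraries held 11279455 to 129161094 UMIs in 11571, 12724, 9895, 14159 and 12225 barcodes from sham to day 14, and 9877 to 12705 barcodes of a library were kept. The median depth of kept barcodes followed the order of the time points, from 774 UMIs in sham to 8740 at day 14. Over the 60574 barcodes, 383 sequences occurred in more than 1 library. Of the members, 3 had a sequence seen in another library, none of them in a member there. A doublet caller marked 13 of the 273 members. The sources do not say whether the order of depth comes from sequencing or from the cells.

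Members numbered 4 in sham, 22 at day 1, 65 at day 3, 19 at day 7 and 163 at day 14. Of the kept barcodes they made up 0.0347% (exact Clopper-Pearson interval 0.00946 to 0.0888) in the sham library. The day 1 share was 0.173% (0.109 to 0.262) and the day 3 share 0.658% (0.508 to 0.838). At day 7 the share was 0.154% (0.0926 to 0.240), and at day 14 it was 1.36% (1.16 to 1.59). The share was thus highest at day 14 and next at day 3, while the intervals of days 1 and 7 overlapped each other. Sham and day 7 held fewer than 20 members and were left out of every fit and ratio.

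Median depth of members differed between libraries, at 1122.5, 1862, 5269, 15150 and 12056 UMIs from sham to day 14, and a rule that asks for detected genes depends on depth. Member depth was highest at day 7, whereas the median of all kept barcodes was 7279 UMIs at day 7 and 8740 at day 14. When every barcode was thinned to 500 UMIs, the shares were 0.0195%, 0.0885%, 0.189%, 0.0457% and 0.501%, in the same order of libraries. Thinned to 2000 UMIs, with shallower barcodes left out, 0 of 666 barcodes qualified in sham, with an exact upper limit of 0.552%, and the others gave 0.214%, 0.549%, 0.153% and 1.65%. Day 14 stayed above day 3 at both depths. Thinning removes UMIs of the genes that must be absent as well as those that must be present.

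**Figure D1:**
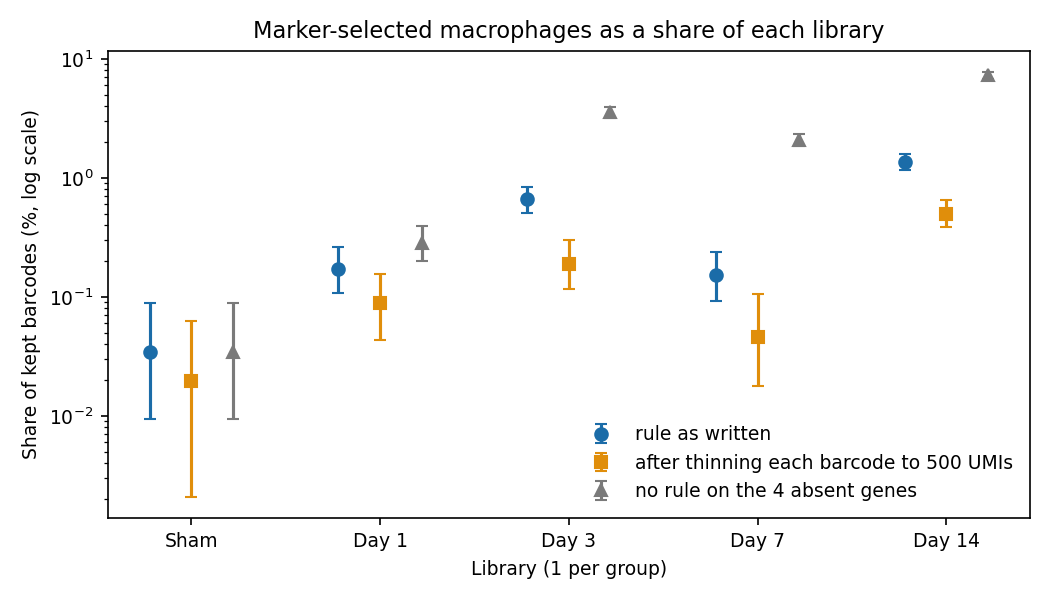
Share of kept barcodes that were marker-selected macrophages (y axis, percent, log scale) in the 5 libraries (x axis), with exact 95% intervals for counting error, by the rule as written, after thinning each barcode to 500 UMIs, and with no rule on the 4 absent genes. The share is 1.36% at day 14 and 0.658% at day 3 as written, and 0.501% and 0.189% after thinning.

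The 4 genes that had to be absent removed most barcodes that carried the markers. At least 3 markers were detected in 1516 barcodes, of which 1243, or 82.0%, were left out: 0 in sham, 14 at day 1, 286 at day 3, 238 at day 7 and 705 at day 14. At day 14, 505 of the 705 were left out for Tmem119 or P2ry12 alone, and 149 for a single UMI. Arg1 had a UMI in 206 of the 286 barcodes left out at day 3. Barcodes left out were deeper than members, with median depths of 3289, 7094, 15309 and 16625 UMIs at days 1, 3, 7 and 14. Without any rule on absent genes the shares were 0.0347%, 0.283%, 3.55%, 2.08% and 7.27% from sham to day 14.

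Most members sat close to the marker threshold. Exactly 3 markers were detected in 145 of the 273 members and all 7 in 13, of which 2 came from day 1, 4 from day 3 and 7 from day 14. Just outside, 327 kept barcodes had 2 markers and none of the absent genes. The most frequent combination was Pf4, F13a1 and Stab1 without the other 4 markers, in 57 members, of which 17 came from day 3, 8 from day 7 and 32 from day 14. Mrc1, Pf4, F13a1 and Stab1 together made up 53 members, 48 of them at day 14.

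Levels below are in CPM, UMIs of a gene per 1000000 UMIs summed over the members of a library, in the order sham, day 1, day 3, day 7 and day 14. One UMI was worth 233, 21.4, 2.60, 3.55 and 0.464 CPM in that order, so sham levels rest on few molecules. The lectin and scavenger receptors came first. Mrc1 stood at 2333, 1176, 341, 114 and 442 CPM. Stab1 stood at 1633, 1133, 247, 267 and 433 CPM. Both were highest in sham and at day 1, the libraries with the shallowest members, and the part of depth in this was not tested.

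Cd163 was at 467, 299, 83.2, 7.11 and 26.9 CPM, and Lyve1 at 0, 449, 80.6, 10.7 and 13.5 CPM. Lyve1 had a UMI in 22.7% of members at day 1, 15.4% at day 3 and 5.52% at day 14, and Cd163 in 27.3%, 15.4% and 8.59%. The carbonyl reductase gene Cbr2 was at 0, 898, 172, 21.3 and 43.6 CPM, with a UMI in 68.2% of members at day 1 and 19.6% at day 14. The 3 genes taken as most typical of resident border macrophages were thus absent from most members at days 3, 7 and 14.

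The chemokine gene Pf4 was at 2333, 3505, 1908, 391 and 1192 CPM, and F13a1 at 933, 812, 442, 178 and 271 CPM. At day 14 Pf4 had a UMI in 93.3% of members at a median of 12056 UMIs, against 3.76% of microglia-type barcodes at a median of 9200. Stab1 was in 92.6% of members against 52.0% of microglia-type barcodes. F13a1 was in 80.4% against 0.664%, and Mrc1 in 77.9% against 3.05%. These gaps were set by the choice of both sets, since microglia-type barcodes could have at most 1 of the markers.

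**Figure D2:**
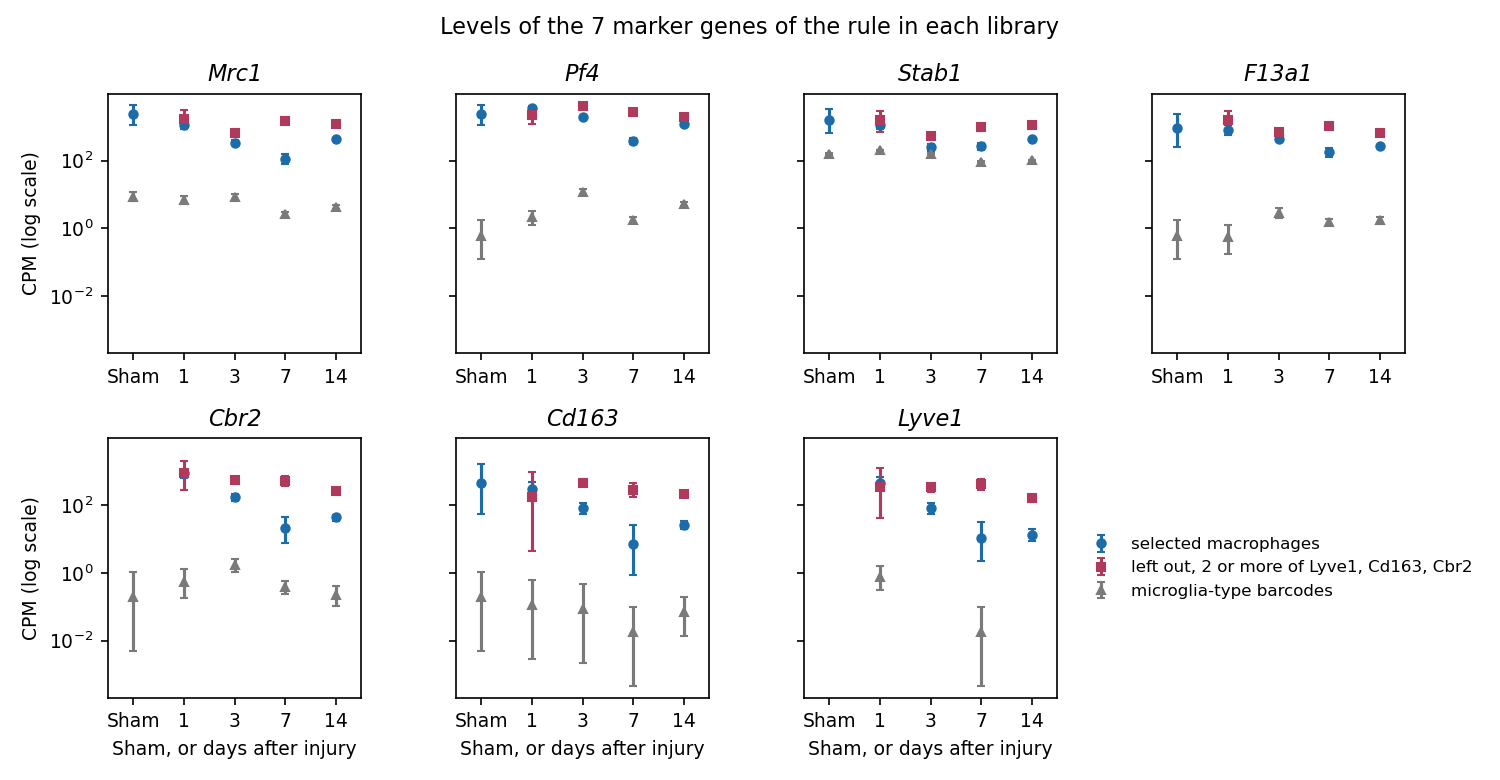
Level of each of the 7 rule genes (y axis, CPM, log scale) in the members of each library (x axis), in the barcodes left out by an absent gene that had at least 2 of Lyve1, Cd163 and Cbr2, and in the microglia-type barcodes, with exact 95% Poisson intervals. Sets with 0 UMIs are not drawn. At day 14 Pf4 is at 1192 CPM in the members.

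The label of border-associated macrophages was set beside Lyve1, Cd163 and Cbr2, which are 3 of the 7 rule genes and so cannot test it. At least 2 of these 3 had a UMI in 29 of 273 members, or 10.6%: 0 in sham, 7 at day 1, 10 at day 3, 1 at day 7 and 11 at day 14. These are called core members, a subset chosen after the values were seen and given no test. Since only this minority carried at least 2 of these genes, the whole set is called marker-selected macrophages. Detection of these genes depends on depth, and whether the label fits the core members was not tested. The same 2-of-3 criterion was met by 105 barcodes with at least 3 markers, of which 76, or 72.4%, were left out of the members by an absent gene.

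At day 14 the core barcodes left out numbered 47, and 43 of them had only Tmem119 or P2ry12 UMIs. Their median depth was 17775 UMIs, against 9407 in the 11 core members, and their median sum of absent-gene UMIs was 3. Of all Lyve1 UMIs of the day 14 library, 84.9% lay in barcodes left out by absent genes and 14.1% in members. For Cd163 these shares were 78.9% and 17.7%, and for Mrc1 69.9% and 14.7%. For Stab1 they were 39.4% and 5.66%, and 27.3% of its UMIs lay in microglia-type barcodes. At day 1 the order was the other way for Lyve1. Of the library's 103 UMIs, 2 (1.94%) lay in barcodes left out and 21 (20.4%) in members. Most of the 103 lay in barcodes with fewer than 3 markers, among them 7 in microglia-type barcodes.

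Core members differed in level from the others in genes that the rule did not use. The folate receptor gene Folr2 stood at 463 CPM in the 11 core members of day 14, 10 of which had a UMI, and at 49.9 CPM in the other 152, of which 37 had one. The chemokine gene Ccl8 stood at 10464 CPM, with UMIs in 10 of 11, against 2267 CPM, with UMIs in 68 of 152. The next genes rested on few members. All 11 UMIs of the lectin gene Cd209f at day 14 came from 2 core members, against 0 in the others. Of the 27 Ccl24 UMIs in the core, 20 came from 1 member and 8 of the 11 core members had none. The other members held more of H2-Aa, an MHC class II chain, at 3709 against 427 CPM. They also held more of the osteopontin gene Spp1 at 5318 against 454 CPM, more Gpnmb at 1913 against 45.4 CPM, and more of the monocyte chemokine receptor gene Ccr2 at 179 against 9.08 CPM.

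The core barcodes that the rule left out at day 14 resembled core members in part. Their Cd209f was at 179 CPM, Folr2 at 351 CPM, H2-Aa at 546 CPM and Ccr2 at 14.6 CPM. Their Spp1, at 5304 CPM, was close to that of members outside the core. All of these values come from 1 library, and the subset was defined on genes of the same barcodes.

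Members were then set against 2 other sets of kept barcodes. Microglia-type barcodes (22624 in all) had at least 3 of 7 microglial genes, among them Tmem119, P2ry12, Cx3cr1, Siglech, Gpr34 and P2ry13, at most 1 of the 7 markers and no Arg1 or Cd3e. Monocyte-type barcodes (425) had at least 3 of Ccr2, Ly6c2, Plac8, Chil3, Ms4a4c, Vcan and Hp, a UMI of Csf1r, Lyz2 or Fcgr3, at most 1 of the 7 markers and no Tmem119, P2ry12 or Cd3e. UMIs were summed per set in the day 1, day 3 and day 14 libraries and fitted with edgeR's quasi-likelihood test with the library as a block. Genes used to choose either set of a comparison were not tested, but the sets were still chosen on RNA of the same barcodes. Each library gave 1 sum per set, so each of the 3 pairs is members and comparison barcodes of the same library. The pairs may share or differ in any other feature of their libraries.

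Against microglia-type barcodes, most listed border-macrophage genes outside the rule were higher in members, and the tested microglial identity genes were lower. Of 12656 genes tested, 476 were higher (3.76%) and 592 lower (4.68%) at an adjusted p of at most 0.05. Without the day 14 library 134 were higher and 105 lower, and without day 3 286 were lower. Ccl8, a chemokine gene at chr11:82115185-82116799 on the plus strand (GRCm38), had the largest log2 fold of the named genes, 7.86 (SE 0.37, edgeR adjusted p = 2.5e-93). Its level in members was 492, 338 and 2686 CPM at days 1, 3 and 14, against 0.111, 2.42 and 17.1 CPM in microglia-type barcodes. At day 14 it had a UMI in 47.9% of members and 11.6% of microglia-type barcodes, whereas at day 3 a single member held 60 of its 130 UMIs and at day 1 a single member held 16 of 23. Ms4a7, a membrane protein gene of macrophages at chr19:11321039-11336146 on the minus strand, stood at 1133, 356 and 1515 CPM against 0.885, 12.2 and 99.2 CPM. Its log2 fold was 5.67 (SE 0.34, edgeR adjusted p = 6.2e-60). For both genes the lowest member value was above the highest microglia-type value. Each SE given with a fit is the log2 fold divided by the square root of the test's F value. Neither this SE nor the adjusted p measures the spread between the 3 libraries, which the CPM of each library show.

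Other genes of border macrophages that the rule did not use were mostly higher. Of this list, 13 of 17 tested genes were higher and 0 lower, with a median log2 fold of 3.16, where the median of all tested genes was -0.11. Lectin and scavenging genes among them were Fcna at 5.33, Clec4n at 4.69, Clec10a at 4.16 and Siglec1 at 3.78 on the log2 scale. Folr2 was higher by 3.16 and the endocytic adaptor gene Dab2 by 2.19. The transcription factor gene Maf was higher by 0.98 (SE 0.27, edgeR adjusted p = 0.0062), with 1411, 424 and 646 CPM against 342, 388 and 357 CPM. Colec12, Gas6, Ednrb and Hpgd were not called, with log2 folds of 1.15, 0.64, 0.53 and -0.53.

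All 7 tested microglial genes were lower, among them the transcription factor gene Sall1 at -3.97, the crystallin gene Crybb1 at -4.24 and the matricellular gene Sparc at -4.06 on the log2 scale. Sall1 was at 0, 2.60 and 8.35 CPM in members against 158, 63.4 and 127 CPM. Monocyte genes were higher in 10 of 12, with 2.75 for Ccr2 and 2.08 for Ly6c2, which marks inflammatory monocytes. Neither gene had a UMI in the day 1 members. MHC class II genes were higher in 4 of 6, where H2-Aa had a log2 fold of 2.71 and Cd74, the invariant chain, one of 1.96. The summed list stood at 1667, 647 and 16468 CPM in members at days 1, 3 and 14. In microglia-type barcodes it stood at 226, 585 and 4292 CPM, so the gap was small at day 3.

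The remaining lists were mixed. Of the iron and haem genes 7 of 11 were higher, among them the haem oxygenase gene Hmox1 by 1.48 and the biliverdin reductase gene Blvrb by 2.09, and the iron exporter gene Slc40a1 was lower at -1.30. Of the complement genes, Cfp (properdin) was higher by 5.09 and C3 by 1.83, while the integrin gene Itgam was lower at -1.04. Chemokine genes split as well: 6 of 13 were higher, among them Cxcl1 at 4.79 and Ccl7 at 3.73, and 4 were lower, among them Ccl3 at -1.36 and Ccl4 at -1.44. Of the lipid and lysosome genes 6 of 16 were higher, among them Gpnmb at 3.90 and Apoe at 2.14, and 2 lower, Cd9 and Lpl, the latter at -1.42. Csf1r, the receptor that macrophages and microglia need for survival, was lower at -1.01 (SE 0.28, edgeR adjusted p = 0.0060).

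Of the astrocyte genes 7 of 8 were lower in members, and the summed astrocyte list stood at 2949, 322 and 72.4 CPM in members at days 1, 3 and 14, against 3053, 1854 and 344 CPM in microglia-type barcodes. The gap between the sets in astrocyte RNA was thus small at day 1 and wide at days 3 and 14, and its part in the calls was not tested. Summed platelet genes stood at 21.4, 7.80 and 1.86 CPM in members, with 2 of 8 detected at day 14. Endothelial genes stood at 21.4 CPM at day 1 and 19.03 CPM at day 14, with 7 of 8 detected at day 14, and lymphatic endothelial genes at 64.1, 15.6 and 12.1 CPM. The choroid plexus gene Ttr rested on single barcodes: 848 of 875 UMIs at day 3 and 5747 of 6080 at day 14 came from 1 member each.

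Against monocyte-type barcodes, members had more RNA of complement, border-macrophage and microglial genes and less of MHC class II and neutrophil granule genes. Of 5617 genes tested, 109 were higher (1.94%) and 95 lower (1.69%) by the same edgeR rule. Without the day 14 libraries both counts were 0 of 3401 tested, with 141 and 203 at an unadjusted p under 0.05, so the calls rest on day 14. Ccl8 again had the largest fold, 8.70 (SE 0.42, edgeR adjusted p = 4.7e-05), with 0, 0 and 6.88 CPM in monocyte-type barcodes at days 1, 3 and 14. Gas6, a ligand of the engulfment receptors Axl and Mertk, was higher by 4.86 and the growth factor gene Igf1 by 4.10 on the log2 scale. Ttr was called at 4.11 and stood at -0.0039 without the single barcode of each library that held it.

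Border-macrophage genes outside the rule were higher in 8 of 13, with a median of 1.88, among them Folr2 at 4.76, Maf at 2.78 and Siglec1 at 2.70. The microglial identity list, lower against microglia-type barcodes, was here higher in 5 of 9 tested genes and lower in 0, with a median of 1.29. Lipid and lysosome genes were higher in 6 of 16 and lower in 0, with a median of 1.24. Complement genes were higher in 5 of 10, where C1qa had 5493, 2875 and 6192 CPM in members against 266, 400 and 777 CPM. MHC class II genes were lower in 3 of 6, Cd74 at -2.06, H2-Ab1 at -2.31 and H2-Eb1 at -2.07, and H2-Aa at -1.77 was not called (edgeR adjusted p = 0.053). Dendritic cell genes, a list of 8, summed to 395 CPM in the monocyte-type barcodes of day 14, with 8 detected, and to 39.4 CPM in members, with 6 detected. The sums were 17.7 and 13.9 CPM in monocyte-type barcodes at days 1 and 3, and their part in the MHC class II difference was not tested. Retnlg, S100a9 and S100a8, neutrophil genes, were lowest at -9.28, -6.73 and -5.90. Neutrophil genes summed to 19685, 10942 and 3897 CPM in the monocyte-type barcodes and to 42.7, 450 and 136 CPM in members. At least 2 neutrophil genes were detected in 4 of 22, 16 of 127 and 9 of 216 monocyte-type barcodes. The same held for 0 of 22, 1 of 65 and 14 of 163 members. Without these monocyte-type barcodes, and with all members kept, 90 genes were higher and 84 lower.

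**Figure D3:**
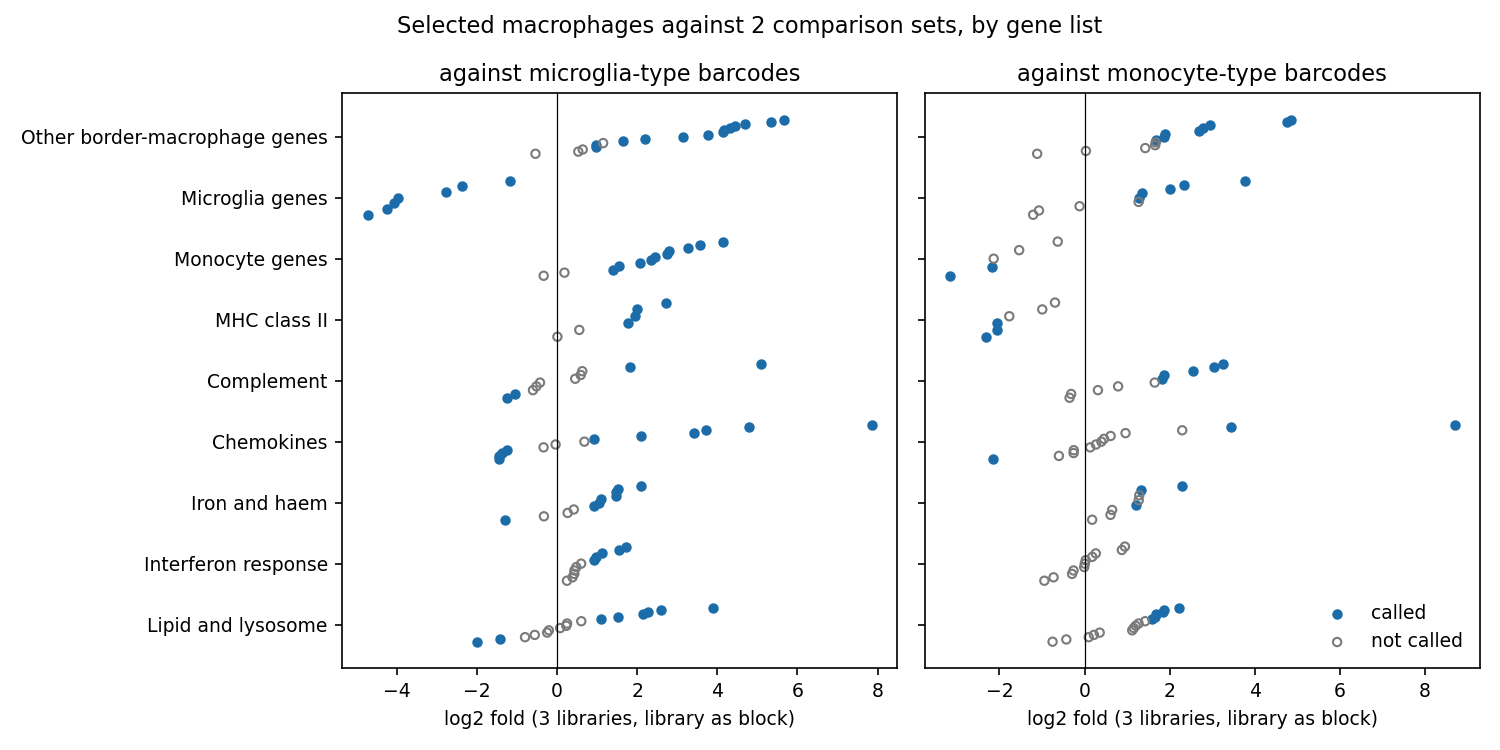
Log2 fold (x axis) of each tested gene of 9 lists (y axis) in members against microglia-type barcodes (left) and monocyte-type barcodes (right). Filled points are genes called at an adjusted p of at most 0.05. The border-macrophage genes outside the rule have medians of 3.16 and 1.88, and called genes of the MHC class II list lie above 0 on the left and below 0 on the right.

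Among the libraries, members at day 14 and day 3 are the best measured pair, with 2154979 and 384664 UMIs. At day 14 MHC class II, interferon and complement genes stood higher than at day 3, and genes of division, inflammation and monocytes stood lower. Of 7604 genes with a mean of at least 10 CPM, 832 (10.9%) were at least 2-fold higher at day 14 and 1020 (13.4%) at least 2-fold lower, with a median log2 ratio of -0.14. TMM scaling, which equalises most genes, would shift every log2 ratio by 0.24. No sign of the list medians given for this pair depends on that shift. At day 14 against day 1, the interferon and complement medians were -0.32 and -0.33 by CPM, and 0.60 and 0.58 with TMM. In UMIs summed over members, fewer barcodes with a gene and less of its RNA per barcode cannot be told apart.

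All 7 measured MHC class II genes were past 2-fold at day 14, with a median log2 ratio of 4.59, where in microglia-type barcodes 5 of 6 were, with a median of 3.25. H2-Aa was at 3542 CPM at day 14 and 114 CPM at day 3, a log2 ratio of 4.95 (4.53 to 5.41). H2-Ab1, H2-Eb1 and Cd74 had log2 ratios of 5.49, 4.87 and 4.59. At day 3, 3 members held 39 of the 44 H2-Aa UMIs and 81 of the 112 Cd74 UMIs, and without the 3 members of each library with the most UMIs of the gene H2-Aa and Cd74 had ratios of 7.93 and 6.28. In the order of the libraries, Cd74 stood at 233, 556, 291, 437 and 7011 CPM, so that day 14 was above every other library. The sham value rests on 1 UMI.

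Interferon genes were past 2-fold in 9 of 11, with a median of 1.67 against 0.52 in microglia-type barcodes. Oasl2, an antiviral gene of this list, had a log2 ratio of 2.86 (1.96 to 3.93). Iigp1, an interferon-induced GTPase gene, had 0 UMIs at day 3 and 131 CPM at day 14, where it was at least 16.8-fold higher when day 3 is set to a floor of 3 UMIs over the day 3 members. The T-cell attracting chemokine gene Cxcl9, at 0 and 105 CPM, was at least 13.4-fold higher, and it had a UMI in 9.82% of day 14 members and 5.90% of microglia-type barcodes. At day 14, 3 members held 139 of its 226 UMIs. Without the 3 members of each library with the most, Cxcl9 stood at 41 CPM at day 14. Its log2 ratio was then at least 2.31 over a floor of 3 UMIs. Ifi27l2a went the other way, at 5963, 2046 and 1317 CPM at days 1, 3 and 14. Against day 1, Oasl2 and Iigp1 had log2 ratios of 0.14 and -1.91 at day 14 by CPM. Iigp1 had 23 UMIs in the day 1 members.

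Complement genes were past 2-fold in 6 of 10, with a median of 1.15 against 0.095 in microglia-type barcodes. C3, the central complement component, stood at 139 CPM at day 14 against 2.60 CPM at day 3, which is 1 UMI, a log2 ratio of 5.74 (3.25 to 11.1). C1qa stood at 1.11 (1.02 to 1.20). Ccl8 was at 0, 492, 338, 53.3 and 2686 CPM over the libraries, and its log2 ratio was 2.99 (2.74 to 3.25). Without the 3 members with the most Ccl8 UMIs in each library it was 5.21 (4.63 to 5.87). Apoe, which carries lipids out of cells, was at 41521, 24194, 28438, 123927 and 75100 CPM, highest at day 7. Igf1 had a log2 ratio of 2.52 (1.81 to 3.34).

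Genes lower at day 14 than at day 3 included 8 of 12 monocyte genes, 7 of 9 cell-cycle genes, 6 of 11 inflammatory genes and 7 of 13 chemokine genes. In microglia-type barcodes 10 of 10 cell-cycle genes were lower, with a median of -2.55 against -1.74 in members, and 8 of 9 inflammatory genes, with -1.80 against -1.20. There 2 of 9 monocyte genes and 5 of 11 chemokine genes were lower. Chil3, a chitinase-like gene of recruited monocytes, stood at 616 CPM at day 3 and 17.6 CPM at day 14, a log2 ratio of -5.13 (-5.66 to -4.63). Ccr2 was among the exceptions, with 33.8 CPM at day 3 and 170 at day 14. Hmox1 stood at 233, 321, 1825, 302 and 195 CPM and was highest at day 3, with a log2 ratio of -3.22 (-3.40 to -3.05). At day 3, 3 of the 65 members held 418 of its 702 UMIs. Without the 3 members of each library with the most Hmox1 UMIs the levels were 800 and 148 CPM, and the log2 ratio was -2.43 (-2.67 to -2.19). For Chil3 the same step gave -4.58 (-5.29 to -3.93). Fkbp5, a glucocorticoid-induced gene, stood at 231 CPM at day 3 and 7.42 CPM at day 14, a log2 ratio of -4.96, and at -3.44 in microglia-type barcodes. Cxcl2 had a log2 ratio of -3.01, Ccl4 one of -2.27, Tnf one of -2.58 and the division gene Mki67 one of -2.98. Of the 38 Mki67 UMIs at day 3, 29 came from 3 members, and without the 3 members with the most in each library its ratio was -2.15 (-3.52 to -0.72). Lists of other cell types moved as well: the summed astrocyte list stood at 322 CPM at day 3 and 72.4 CPM at day 14, and the summed oligodendrocyte list at 577 and 1527 CPM, with 4 of 7 genes past 2-fold higher at day 14. Their part in these ratios was not tested.

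**Figure D4:**
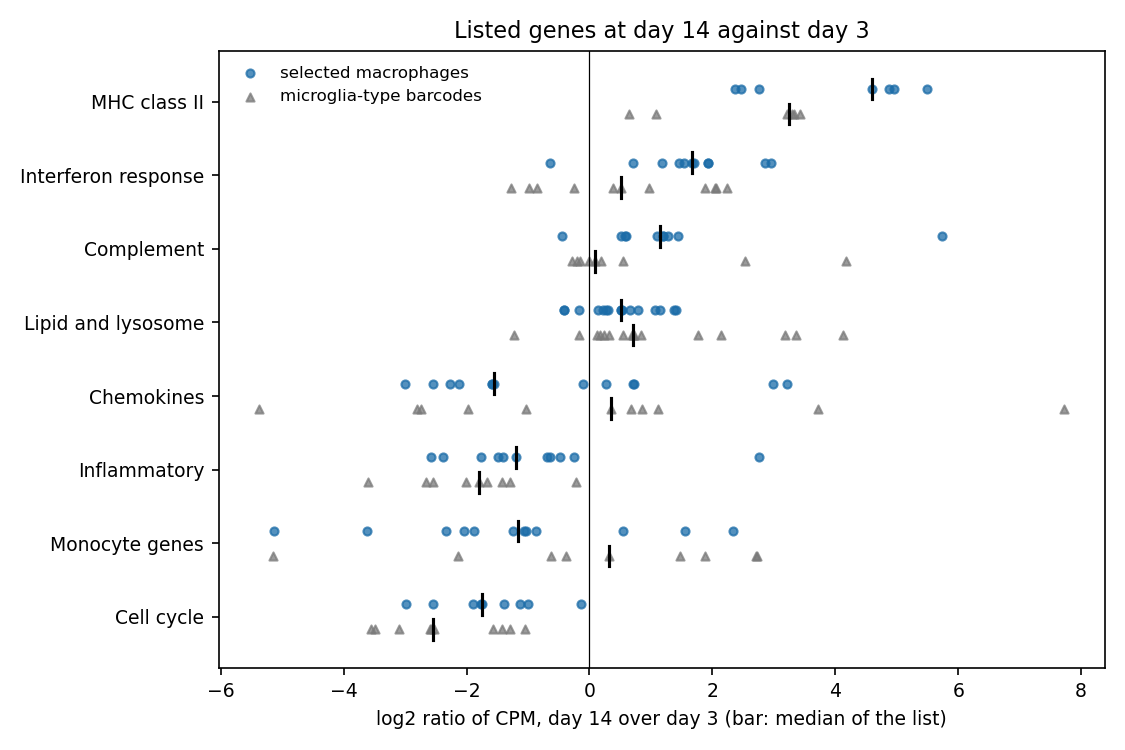
Log2 ratio of day 14 to day 3 (x axis) for the measured genes of 8 lists (y axis) in members (circles) and microglia-type barcodes (triangles), with bars at the list medians. MHC class II genes lie highest in members, with a median of 4.59 against 3.25 in microglia-type barcodes (against day 1 these medians are 3.29 and 5.78), and chemokine genes have a median of -1.54 against 0.36.

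The 22 members of day 1 held 46789 UMIs, and their comparisons depend on the scaling. Against day 1, 583 of 7087 genes (8.23%) were at least 2-fold higher at day 3 and 2855 (40.3%) at least 2-fold lower. At day 14 against day 1, 467 of 7375 (6.33%) were higher and 3222 (43.7%) lower. The median log2 ratios were -0.67 and -0.78, and TMM moved them by 0.67 and 0.92. With TMM the splits were 1503 higher and 1651 lower at day 3, and 1715 higher and 1570 lower at day 14. Both comparisons share the day 1 members, and the astrocyte list stood at 2949 CPM in them.

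Genes of lipid handling and lysosomes were past 2-fold higher in 9 of 16 at day 3 and 11 of 16 at day 14, and in 12 and 14 of 16 with TMM. In microglia-type barcodes 6 of 16 were higher at day 3 and 8 of 16 at day 14. Lgals3, which encodes galectin-3, stood at 42.7 CPM at day 1, 1955 at day 3 and 1738 at day 14, with a log2 ratio of 5.52 (3.66 to 8.56) at day 3. Fabp5, a fatty acid binding protein gene, stood at 128, 1976 and 3423 CPM. Gpnmb had 0 UMIs at day 1 and 702 and 1818 CPM at days 3 and 14. All 3 were past 2-fold with either scaling.

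Interferon genes were at least 2-fold lower in 10 of 11 at day 3 than at day 1, and in 7 of 11 with TMM, whereas in microglia-type barcodes 5 were higher and 2 lower. At day 14 against day 1, 0 of 11 were higher and 3 lower, or 4 and 1 with TMM. In microglia-type barcodes 5 were higher and 0 lower in that ratio. Complement genes at day 14 against day 1 were higher in 1 of 10 and lower in 2, or 3 and 1 with TMM. MHC class II genes were past 2-fold higher in 4 of 6 at day 14 against day 1, and in 6 of 6 with TMM. Their median log2 ratio was 3.29, against 5.78 in microglia-type barcodes, where 5 of 6 were higher, so members were above microglia-type barcodes in this ratio against day 3 and below them against day 1. The difference itself was not tested. Ccl12, a monocyte-attracting chemokine gene, stood at 5322 CPM at day 1 and 244 CPM at day 3, a log2 ratio of -4.44 (-4.80 to -4.10). Inflammatory genes were lower in 9 of 10 at day 14 than at day 1, and in 6 of 10 with TMM. In microglia-type barcodes 10 of 11 were lower.

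The 19 members of day 7 and the 4 of sham are given as values only. At day 7 Spp1 stood at 12364 CPM, against 1154, 3208 and 5069 CPM at days 1, 3 and 14, and Gpnmb at 3375 CPM. Of the 54 Spp1 UMIs at day 1, 43 came from 1 member. Without the 3 members of each library with the most Spp1 UMIs, Spp1 stood at 7768 CPM at day 7. At days 1, 3 and 14 it then stood at 126, 2492 and 3188 CPM. Mitochondrial genes took a median of 3.87% of UMIs in day 7 members, against 0.488% to 1.05% in members of the other libraries. This was not particular to members. Of all kept barcodes of day 7, 10019 of 12358 had at most 10% mitochondrial UMIs. In sham and at days 1, 3 and 14 these were 11524 of 11525, 12674 of 12705, 9840 of 9877 and 11818 of 11946. In sham, Mrc1 and Stab1 were detected in all 4 members, Pf4 in 3 and Lyve1 in none. Maf stood at 2333 CPM in sham and Dab2 at 1866 CPM.

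Within day 14, members differed widely in MHC class II. The UMIs of H2-Aa, H2-Ab1 and Cd74 together ranged from 0 to 666 per 10000 UMIs of a barcode, with a median of 39.0. At least 100 per 10000 was reached by 68 of 163 members (41.7%, exact interval 34.1 to 49.7), 68 lay under 10 and 27 lay between. These limits were set after the values were seen and mark ranges, not types. The other libraries had 0 of 4, 1 of 22, 1 of 65 and 2 of 19 members at 100 or more, from sham to day 7.

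Members high in MHC class II at day 14 had other levels of several genes outside that family, given with no test. Ccr2 stood at 485 CPM in the 68 members at 100 or more and at 9.18 CPM in the 68 under 10. Spp1 stood at 494 against 7178 CPM, Gpnmb at 108 against 3349 CPM and Igf1 at 119 against 274 CPM. Of the rule genes, Pf4 stood at 1104 against 1072 CPM and Mrc1 at 471 against 360 CPM, while Stab1 stood at 313 against 502 CPM, F13a1 at 206 against 283 CPM and Cd163 at 8.42 against 24.8 CPM. Median depth was 10065 UMIs in the high range and 15878 in the low range, and its part was not tested.

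**Figure D5:**
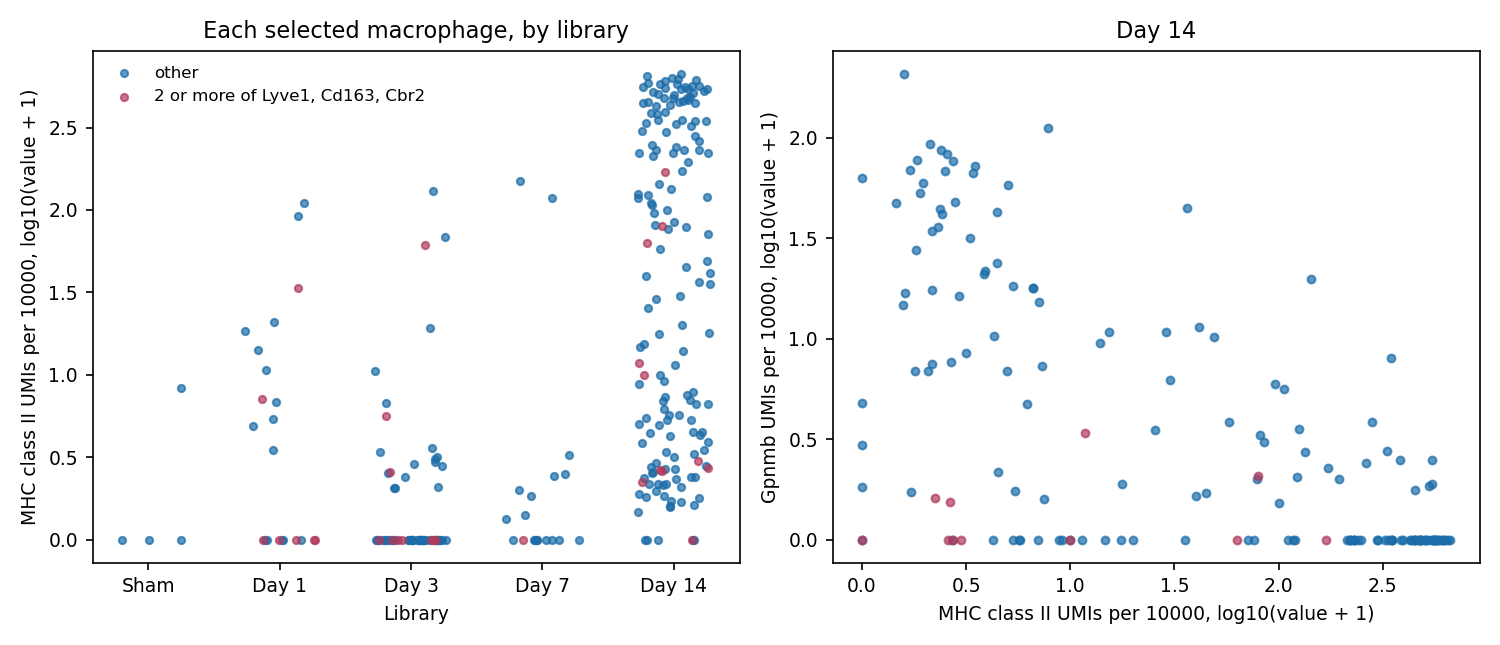
MHC class II UMIs (H2-Aa, H2-Ab1 and Cd74) per 10000 UMIs of each member, as log10(value + 1), by library (left), and at day 14 (x axis) against Gpnmb UMIs per 10000 on the same scale (y axis, right). Each point is 1 member, and core members are in red. At day 14, 68 members lie at 100 or more and 68 under 10, and 4 members of the other libraries lie at 100 or more.

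A UMI of Mki67 or Top2a, genes of dividing cells, was found in 0 of 4, 2 of 22, 13 of 65, 3 of 19 and 21 of 163 members from sham to day 14. The exact interval of the share was 11.1% to 31.8% at day 3 and 8.16% to 19.02% at day 14, at median depths of 5269 and 12056 UMIs. These shares count any UMI and were not set to one depth, so no difference or likeness is read from them. None of the 10 core members of day 3 had either gene.

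Alkbh5, the m6A demethylase gene of the series title, stood at 64.1, 88.4 and 65.4 CPM in members at days 1, 3 and 14, against 106, 129 and 66.7 CPM in microglia-type barcodes. The day 1 value rests on 3 UMIs. The log2 fold was -0.23 (SE 0.29, edgeR adjusted p = 0.79) and was not called. Socs3, a feedback inhibitor of cytokine signalling, stood at 171, 234 and 106 CPM against 445, 333 and 167 CPM. It was lower in all 3 libraries, with a log2 fold of -0.70 (SE 0.28, edgeR adjusted p = 0.12), which did not pass. Against monocyte-type barcodes the log2 folds were 0.08 and -0.56 for Alkbh5 and Socs3, with edgeR adjusted p of 0.97 and 0.42.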

How the data were processed

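Cortex cells of 5 libraries (sham and 1, 3, 7 and 14 days after injury) were measured, 1 library per group. Per the file headers, the authors made the UMI counts with Cell Ranger 4.0.0, and the counts were deposited as whole numbers for 55450 genes, not normalized. Per the submitters' processing notes, STAR 2.5.37 and Seurat 3.2.0 were also used, and the builds named are mm10 and GRCm38, with no role stated. All gene IDs matched GENCODE mouse release 21.

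The members and all gene lists were chosen with earlier results of these data known. No clustering was used. Doublets were called with Scrublet in scanpy 1.11.5 and kept, except in an alternative. Counts summed per set and library were tested with edgeR 4.0.16 (R 4.3.3; filterByExpr, TMM, library as a block, Benjamini-Hochberg adjustment) in the 3 libraries with at least 20 barcodes in each set. The fit was checked on simulated counts. Between libraries, CPM of summed UMIs gave log2 ratios with exact conditional binomial intervals for genes with a mean of at least 10 CPM, and 0 was set to a floor of 3 UMIs. Levels have exact Poisson intervals.

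Named genes were the rule genes, Alkbh5 and Socs3, the highest and lowest of each list above 50 CPM, the 12 called genes with the largest fold in each direction above 100 CPM, and the 8 highest and lowest between libraries. Mitochondrial, ribosomal, haemoglobin and immunoglobulin genes, Y-linked genes and gene models were left out of the last 2 kinds. From these the text gives those that describe a group. Others in the text (Colec12, Gas6, Ednrb, Hpgd, Csf1r, Cd209f, Oasl2, Ccl4, Tnf and further list members) were added to show their lists, after their values were seen. The alternatives were DESeq2 1.42.0, other filters, thinning, other marker rules, doublets removed, each library left out and, added after seeing the data, the 3 members of each library with the most UMIs of a gene left out. Some genes of these lists are not reported here.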

Additional observations from a re-analysis of the deposited data

How the results depend on the processing

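Of the shares of kept barcodes and the counts of genes, 75 alternatives stayed within the stated spread and 53 moved. With at least 2 markers the shares at days 1, 3, 7 and 14 were 0.519%, 1.61%, 0.639% and 2.43%, and with at least 4 markers 0.253%, 0.0405% and 0.686% at days 3, 7 and 14. Without F13a1 in the list they were 0.354%, 0.0647% and 0.929% at days 3, 7 and 14, and with up to 1 UMI of each absent gene allowed 1.21%, 0.518% and 3.11%. With no rule on absent genes they were 0.283%, 3.55%, 2.08% and 7.27% at days 1, 3, 7 and 14. Thinning to 500 UMIs gave 0.0885%, 0.189%, 0.0457% and 0.501%, and to 2000 UMIs 0% in sham and 1.65% at day 14. Against microglia-type barcodes, the genes higher and lower numbered 266 and 205 with DESeq2, 26 and 16 without the library block, and 77 and 125 after thinning to 500 UMIs. Leaving out each library gave 134 to 607 higher and 105 to 735 lower, with 134 and 105 without day 14 and 286 lower without day 3. Against monocyte-type barcodes they were 293 and 374 with no low-count filter, 3 and 7 without the library block, and 27 and 20 after thinning. Leaving out each library gave 0 to 130 higher and 0 to 163 lower, with 0 and 0 without day 14. With TMM the genes past 2-fold were 1503 higher and 1651 lower at day 3 against day 1, and 1715 and 1570 at day 14 against day 1. At a mean of at least 50 CPM, where fewer genes are measured, they were 331 and 840, 251 and 937, and, at day 14 against day 3, 199 and 301. With no filter, where more are measured, the last pair gave 1395 and 2591. For single genes and lists, 1095 alternative values kept direction and call or stayed within their interval, 57 lost the call in the same direction and 128 moved. Signs reversed for Ttr against monocyte-type barcodes (-0.0039), for Ttr and the choroid plexus list at day 3 against day 1 (-0.25 each), all without the single Ttr-rich barcodes (-0.24 for Ttr without the 3 members of each library that held the most), and for the oligodendrocyte list at day 14 against day 3 with at least 4 markers (-0.24). Where no construction explains a change, the cause was not tested. Day 7 added to the fit, Ttr-rich barcodes or the 3 members richest in a gene left out and neutrophil-marked barcodes left out were alternatives chosen after seeing the data. Alternatives that left under 20 members at day 1 (at least 4 markers, at least 1000 UMIs, doublets removed) were not run for the day 1 ratios. No paired analysis was possible because each time point is 1 library, so that no 2 samples of a group can be paired across groups. The library block pairs sets of barcodes of the same library, not samples. Depth limits sham and day 1 most, where 1 UMI is worth 233 and 21.4 CPM.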

Other observations

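Some gene groups of the comparison with microglia-type barcodes have not yet been described. Of the transcription factor genes, 2 of 11 were higher in members, the oxysterol receptor gene Nr1h3 by 3.30 and Runx3 by 3.03 on the log2 scale, and Mef2c, a factor of microglia, was lower at -1.49. Of the scavenger and Fc receptor genes 3 of 13 were higher, Cd36 by 3.30, Msr1 by 1.94 and Fcgrt by 1.31, and the engulfment receptor gene Mertk was lower at -0.90. Interferon genes were higher in 5 of 11, among them Irf7 by 1.72. Of the cell-cycle genes 0 of 11 passed in either direction by edgeR's adjusted p.

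Levels in the 4 sham members rest on 4287 UMIs in all, and 233 CPM is 1 UMI there. Of the haemoglobin-related erythroid list, 4 of 4 tested genes were lower in members than in microglia-type barcodes, and the summed list stood at 0, 0, 0, 10.7 and 73.8 CPM in members from sham to day 14. T and B lymphocyte genes summed to 45.5 CPM in the day 14 members, with 7 of 8 detected.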
